A study of Rattus norvegicus with 8 samples.

Results

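The subject here is a set of 8 amino acid transporter genes of the liver cell, Slc3a2, Slc7a5, Slc7a1, Slc7a2, Slc38a2, Slc38a3, Slc38a4 and Slc1a5, read by every probe set of the array whose platform symbol is one of these names. There were 10 such probe sets among 15923 (8 of 10959 genes by platform symbol), 3 of them for Slc7a1 and 1 for each other gene, and none carried a further symbol. Primary hepatocytes of 4 rats were kept in dishes overnight, and from each rat 1 culture then received cadmium chloride (4 µM for 3 h) while another received medium alone. The labels give no strain, sex, age or genotype for the animals, and both groups share the isolation and the overnight culture. The series description also gives a viability above 85%, a confluency of 90% and 4 h with albumin (BSA). The 4 control and 4 cadmium RNA samples each went to 1 rat oligonucleotide array (RAE230A), and a sample's number names the rat it came from.

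Amino acids cross the hepatocyte membrane through carriers that differ in what they take and in what drives them. SLC7A1 (CAT-1) and SLC7A2 (CAT-2) carry cationic amino acids such as arginine and lysine. SLC38A2 (SNAT2) and SLC38A4 (SNAT4) move small neutral amino acids inward with sodium, while SLC38A3 (SNAT3) carries glutamine, histidine and asparagine and can run either way. SLC3A2 is the glycoprotein chain that brings light chains such as SLC7A5 (LAT1, large neutral amino acids) to the surface, and SLC1A5 (ASCT2) exchanges small neutral amino acids including glutamine. When amino acids run short, the kinase GCN2 slows translation and the transcription factor ATF4 is made. ATF4 acts with C/EBP partners on genes that hold a composite C/EBP-ATF element, among them Slc7a1 and Slc38a2 in studies of cultured mammalian cells.

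The stretches before the RefSeq starts of Slc7a1 and Slc38a2 are shown because their probe sets had the highest estimates of change among the transporters. Each is the 250 bases upstream of the start on the gene's own strand, 5′ to 3′, from the RefSeq promoter table of the build GRCr8 (Slc7a1, chr12:11664238-11664487, plus strand; Slc38a2, chr7:129742620-129742869, minus strand). Capitals mark a match to TGATGNAA, the core letters of the C/EBP-ATF type of element, searched on both strands over 300 bases from 250 before to 50 after the start.
Slc7a1: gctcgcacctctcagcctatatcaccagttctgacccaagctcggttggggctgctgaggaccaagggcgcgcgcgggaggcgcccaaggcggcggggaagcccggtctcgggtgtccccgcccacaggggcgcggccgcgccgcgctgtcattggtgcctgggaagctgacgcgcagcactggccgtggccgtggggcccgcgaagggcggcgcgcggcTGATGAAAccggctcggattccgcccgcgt
Slc38a2: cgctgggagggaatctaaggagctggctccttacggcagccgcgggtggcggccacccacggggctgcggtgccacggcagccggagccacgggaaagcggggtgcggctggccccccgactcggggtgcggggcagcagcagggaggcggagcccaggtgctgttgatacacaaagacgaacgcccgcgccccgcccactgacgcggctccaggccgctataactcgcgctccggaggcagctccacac

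The Slc7a1 window held 1 match, with its first base 30 bases before the start, and the Slc38a2 window held none. These letters occur in 1332 of 33469 windows of the table, or 3.98%. The table held windows for 5 of the 8 transporter genes (2 starts for Slc3a2), and only that of Slc7a1 had a match, while those of Slc3a2, Slc7a5 and Slc38a4 had none. A match is a description of the letters and not a bound site, and the element known for Slc38a2 in other mammals lies in an intron, outside such a window.

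The values are the authors' MAS5 signals, a brightness per probe set on a linear scale. They were compared as log2(signal + 1) with limma, two-sided, over the 9519 probe sets left after the dimmest 40% (signal under about 118) were set aside, with Benjamini-Hochberg adjustment over all of them and a threshold of 0.05. The fit had no term for the rat, and an alternative that blocks on the rat (the replicate block) is given where it changes a call. In the fit without the block 2.1% of probe sets were higher and 1.43% lower after cadmium. Medians of the arrays were 192.2 to 197.2 in controls and 180.0 to 186.4 after cadmium (exact two-sided permutation p = 0.0286, the smallest that 70 assignments allow). That test assigned arrays to groups freely and ignored the pairing by rat. Calls shifted with the scaling, since 59.5% of them were higher as deposited, 69.8% after quantile normalization and 77.3% with every array centred at its median. Of 9 hepatocyte markers with a probe set, 9 passed the filter, with summed signals of 142934 to 157528 in controls and 141289 to 163844 after cadmium. Of the markers of other liver cells, all 4 endothelial, 5 of 7 stellate cell and fibroblast, 4 of 6 Kupffer cell and leukocyte and 3 of 4 cholangiocyte markers lay below the filter. Those above it were Epcam (mean signal 2162), Cd68 (1568), Acta2 (351), Col1a1 (173) and Csf1r (172). Which cells gave these signals was not tested. Cd68 read 736.5 in the control of rat 1 and 2380.2 in that of rat 4. Mean signals were under 50 for Pecam1, Kdr, Lyve1, Vwf, C1qa, C1qb, Ptprc, Lrat, Col1a2, Pdgfrb, Krt19 and Krt7. No marker of any list passed the test in either direction. Summed Kupffer cell and leukocyte markers read 1183.2 to 2637.4 in controls and 995.3 to 3179.0 after cadmium, and summed cholangiocyte markers 1811.9 to 2899.5 and 1127.2 to 2699.3, with rat 4 at the high end of the first and the low end of the second in both groups.

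Rat 4 stood apart in how many probe sets differed. Between its 2 arrays 6.48% of tested probe sets differed at least 2-fold, against 2.95% to 3.49% in the other rats. All 9 hepatocyte markers were lower after cadmium in rat 4, with a median log2 change of -0.11, while 8 of 9 were higher in each of rats 1, 2 and 3. Ratios of 3′ to 5′ signal of the GAPDH control probe sets, a sign of RNA integrity, were 0.99 and 1.07 in rat 4 and 0.96 to 1.12 over the other arrays. The same ratios for beta-actin were 1.79 (control) and 1.63 (cadmium) in rat 4 and 1.38 to 1.63 in the other rats, so that rat 4 lay at or above the top of their range, and the part of RNA quality in the values of rat 4 was not tested. Values without this animal are given below for the transporter probe sets that passed the filter and for the counts of the gene lists. Chip lot 2 served rats 1 and 2 and chip lot 1 served rats 3 and 4. Each rat had its own scan day, and controls ran on 1 fluidics module and cadmium arrays on the other, so module and treatment cannot be told apart.

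Slc7a1 gave the highest estimates of change among the transporters, on both of its bright probe sets. No transporter probe set passed in the fit without the block (0 of 6 tested, against the 2.1% and 1.43% of all probe sets given above), although 3 of the 6, from 2 genes, were higher at an unadjusted p under 0.05, both of Slc7a1 and that of Slc38a2. At that unadjusted threshold 6.03% of all probe sets were higher and 10.4% lower. With the replicate block 1 of 6 passed, 1368392_at of Slc7a1, where 2.86% of all probe sets were higher and 2.29% lower. The adjusted p of the other 5 in that fit was 0.104 to 0.881. The paired call depended on single animals and on the filter, as given below.

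On 1368392_at, Slc7a1 signals in rats 1 to 4 were 489.6, 343.0, 342.7 and 367.8 in controls and 599.9, 608.2, 499.3 and 1013.2 after cadmium. Every cadmium value lay above every control value, and rat 4 had by far the highest. Group means were 386 ± 70.2 and 680 ± 227 (SD, n = 4 in each), which gave a log2 change of 0.78 ± 0.21 (SE; 1.72-fold, 95% interval 1.24 to 2.37; limma adjusted p = 0.0758, and 0.043 with the replicate block). Since this is RNA of whole cultures, a change in the number of cells that carry a transcript and a change in transcript per cell cannot be told apart.

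The second bright probe set, 1368391_at, read 365.9, 408.1, 397.6 and 268.0 in the controls of rats 1 to 4 and 517.7, 747.4, 425.4 and 1067.6 after cadmium. Again the groups did not overlap, but rat 3 differed little. The log2 change was 0.86 ± 0.26 (360 ± 63.8 to 690 ± 286; 1.82-fold, 95% interval 1.22 to 2.71), and it passed neither fit (limma adjusted p = 0.114, and 0.104 with the replicate block). Groups that do not overlap with cadmium above control were found for 4.33% of all tested probe sets, and both readings here are of 1 gene. The third probe set of the gene, 1387167_at, was dim, with signals of 69.7 to 120.9 in controls and 91.3 to 148.1 after cadmium, and lay below the filter. In a fit of all 15866 probe sets without the filter its log2 change was 0.39 ± 0.28 (limma adjusted p = 0.641). All 3 probe sets were annotated with the same accession, and the 2 bright ones had a positive difference in each of the 4 rats, a pattern found in 9.91% of tested probe sets.

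**Figure D1:**
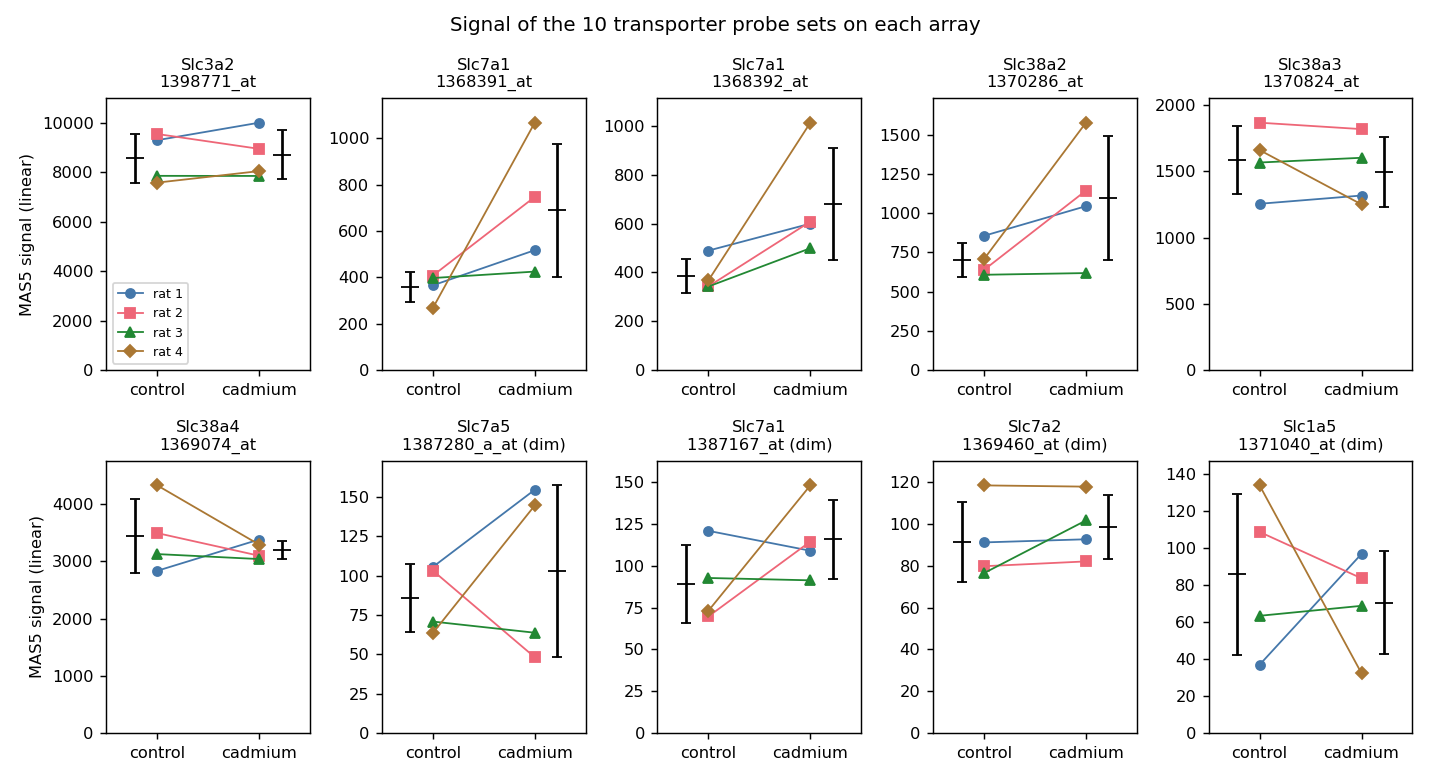
MAS5 signal (linear scale) of each of the 10 transporter probe sets in control and cadmium cultures; coloured points joined by lines are the 2 cultures of 1 rat, and black bars are group means with SD (n = 4). The 2 bright Slc7a1 probe sets have every cadmium array above every control array, and the 4 panels marked dim lie below the filter.

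Without rat 4, the log2 change of Slc7a1 on 1368392_at was 0.55 (limma adjusted p = 0.169 without and 0.0453 with the replicate block), and on 1368391_at it was 0.49 (adjusted p = 0.289 and 0.104). The paired call of 1368392_at was lost without rat 2 (adjusted p = 0.162), without rat 3 (0.0924) and with no filter on dim probe sets (0.0889). Within lot 1 the log2 changes of 1368392_at and 1368391_at were 1.00 and 1.04, and within lot 2 they were 0.56 and 0.69, with adjusted p between 0.274 and 0.588 on 2 rats per lot.

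By the root mean square difference of log2 values over the 8 arrays, each gene centred on its own mean, the genes most like Slc7a1 (1368392_at) among 7098 compared were Ppp1r12a (0.13), Ccdc117 (0.15) and Gtf2ird1 (0.16). Ppp1r12a encodes the myosin-binding subunit of a phosphatase, and Gtf2ird1 a factor of the TFII-I family. Their log2 changes after cadmium were 0.66 ± 0.19 for Ppp1r12a, 0.89 ± 0.17 for Ccdc117 and 0.64 ± 0.17 for Gtf2ird1. Of these, Ccdc117 alone passed without the block (limma adjusted p = 0.0166), and Gtf2ird1 also passed with the replicate block (0.0251). The pick used the same 8 arrays of both groups, so changes near that of Slc7a1 follow from it and are no separate result.

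Slc7a2, the gene of the other cationic carrier, was too dim for a precise reading. Its signals were 91.2, 79.8, 76.5 and 118.5 in the controls of rats 1 to 4 and 92.7, 82.1, 101.7 and 117.9 after cadmium, so the groups overlapped almost fully. None of the 4 dim transporter probe sets passed without the filter, where 1.05% of all were higher. For Slc7a2 the log2 change in that fit was 0.12 ± 0.26 (95% interval -0.45 to 0.69; limma adjusted p = 0.915).

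Slc38a2, the carrier of the sodium-dependent system A, was higher after cadmium by at least 0.29 on the log2 scale in 3 of 4 rats. Its signals were 855.7, 638.6, 607.7 and 707.6 in the controls of rats 1 to 4 and 1044.4, 1143.5, 618.5 and 1576.0 after cadmium. Rats 2 and 4 had the largest differences (log2 0.84 and 1.15), rat 1 a smaller one (0.29) and rat 3 nearly none (0.03), and the cadmium value of rat 3 lay within the control range. Over all rats the log2 change was 0.58 ± 0.24 (702 ± 110 to 1096 ± 393; 1.49-fold, 95% interval 1.03 to 2.16), which did not pass (limma adjusted p = 0.263, and 0.108 with the replicate block). It passed when cadmium replicate 3 alone was left out (log2 change 0.83, adjusted p = 0.0368), as did 1368391_at of Slc7a1 (1.07, adjusted p = 0.0483). With both arrays of rat 3 left out, Slc38a2 had an adjusted p of 0.106 without and 0.0708 with the replicate block. Without rat 4 its log2 change was 0.38 (adjusted p = 0.51 without and 0.169 with the replicate block), and within lots 1 and 2 it was 0.59 and 0.56.

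The other SLC38 carriers, Slc38a3 of system N and Slc38a4, gave estimates near 0 with intervals on both sides of it. Slc38a3 signals ran from 1254.2 to 1865.4 in controls and from 1249.6 to 1816.9 after cadmium, a log2 change of -0.09 ± 0.15 (95% interval -0.42 to 0.25; limma adjusted p = 0.848). Slc38a4 signals were 2836.3, 3496.0, 3128.7 and 4330.6 in controls and 3383.4, 3099.6, 3041.5 and 3294.1 after cadmium, a log2 change of -0.09 ± 0.13 (-0.37 to 0.19; adjusted p = 0.806). Rat 4 differed from the other rats in both genes, with log2 differences of -0.41 for Slc38a3 and -0.39 for Slc38a4. Without rat 4 both estimates changed sign, to 0.02 and 0.01. These intervals, of the fit without the block, leave room for changes of up to about 1.34-fold down and 1.19-fold up for Slc38a3, and 1.29-fold down and 1.14-fold up for Slc38a4. With the replicate block the SE were smaller, 0.10 for Slc38a3 and 0.11 for Slc38a4.

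Slc3a2, the heavy chain of the heterodimeric carriers, had the narrowest interval of the transporters tested. Signals of rats 1 to 4 were 9306.1, 9555.9, 7863.2 and 7589.3 in controls and 10013.9, 8955.3, 7859.0 and 8055.1 after cadmium. Rats 1 and 2 were high and rats 3 and 4 low in both groups, and no rat differed by more than 0.11 on the log2 scale. Differences of both signs among the rats, as seen for Slc3a2, Slc38a3 and Slc38a4, were the pattern of 70.4% of tested probe sets. The log2 change was 0.02 ± 0.11 (1.02-fold, 95% interval 0.86 to 1.20; limma adjusted p = 0.946), and its sign turned after quantile normalization (-0.10). Without rat 4 the estimate was 0.0038 (adjusted p = 0.993). An increase of Slc3a2 of the size estimated for Slc7a1 thus lay outside the interval.

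Its light chain partner Slc7a5 was dim, with signals of 105.5, 103.2, 70.8 and 63.5 in controls and 154.6, 48.1, 63.7 and 144.6 after cadmium. Rats 1 and 4 were higher and rats 2 and 3 lower, and the log2 change without the filter was 0.12 ± 0.41 (95% interval -0.80 to 1.04; limma adjusted p = 0.951). Slc1a5, the neutral amino acid exchanger, read 36.9, 108.8, 63.4 and 134.0 in controls and 96.9, 83.7, 68.8 and 32.3 after cadmium. Its differences ran from 1.37 in rat 1 to -2.02 in rat 4, and its log2 change of -0.23 ± 0.48 spanned -1.29 to 0.83 (adjusted p = 0.909). For both genes the intervals cover 2-fold changes or nearly so, and the array did not resolve them.

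**Figure D2:**
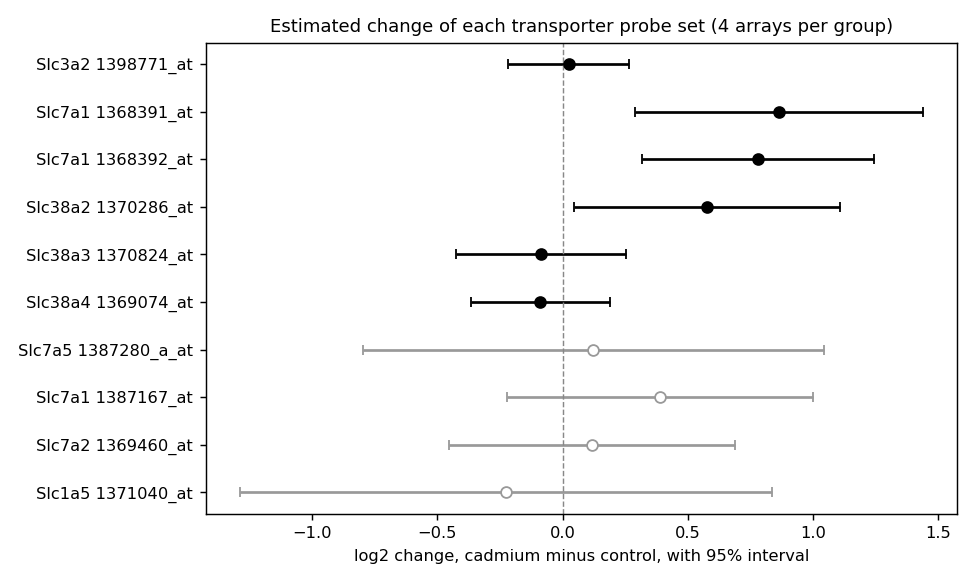
Log2 change (cadmium minus control) of each transporter probe set with its 95% interval from limma (4 arrays per group); filled points are from the fit of 9519 probe sets and open grey points, for dim probe sets, from the fit without the filter. The intervals of the 2 bright Slc7a1 probe sets and of Slc38a2 lie above 0, before any adjustment, and that of Slc3a2 is the narrowest.

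Among other carriers of amino acids, none passed. Of 40 genes listed, 22 had a probe set of their own and 7 passed the filter, and none of the 7 passed the limma test in either direction (0 also at an unadjusted p under 0.05, and 0 with the block or without rat 4), where 2.04% of all genes were higher and 1.31% lower. Their median log2 change was -0.10, against -0.06 over all genes. The brightest were Slc6a9, the glycine transporter GlyT1 (1677 ± 306 and 1850 ± 209; log2 change 0.15 ± 0.14, adjusted p = 0.679), and Slc38a10 (670.0 ± 160 and 500 ± 71.2; -0.40 ± 0.18, adjusted p = 0.303), which was lower in 4 of 4 rats. No probe set was annotated here to the cystine carrier gene Slc7a11, which is not analysed.

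Genes of the amino acid response included several tested genes that rose and none that passed as lower. The list held genes known to be raised through ATF4 when amino acids are short, together with Atf4 itself and Eif2ak4, the gene of GCN2. The counts of genes that rose include Atf4. Eif2ak4, Jdp2 and Stc2 lay below the filter. Without the filter Stc2, named after its values were seen, was lower in every rat (-1.34 ± 0.41) but did not pass (limma adjusted p = 0.172). Estimates for Eif2ak4 and Jdp2 were positive (0.44 and 0.61). Of 34 tested genes 6 rose (17.6%, against 2.04% of all genes higher), and the median log2 change was 0.24, against -0.06 over all genes. With the replicate block 7 rose (2.73% of all genes higher), and without rat 2 the count in the fit without the block was 3, as it was within lot 1, against 5 without rat 4. The 3 largest rises, in the transcription factor Atf3 (3.84 ± 0.18), the glutathione-degrading enzyme Chac1 (1.87 ± 0.20) and the phosphatase subunit Ppp1r15a (1.79 ± 0.16; limma adjusted p at most 0.000382), were seen in 4 of 4 rats. Atf4 itself rose from 4606 ± 702 to 7308 ± 625 (0.67 ± 0.12; adjusted p = 0.0101), with differences of 0.43, 0.56, 0.65 and 1.06 in rats 1 to 4; its adjusted p was 0.0797 without rat 2, 0.051 without rat 3 and 0.0453 without rat 4. The others that passed were the pseudokinase gene Trib3 (0.97 ± 0.19, limma adjusted p = 0.0229) and the C/EBP family gene Cebpg (0.48 ± 0.12, adjusted p = 0.0453). Both were named after their values were seen. With 1 array or rat left out and no block, Trib3 passed only without control replicate 1, cadmium replicate 3 or 4, or rat 3. Cebpg passed only without control replicate 4 or without rat 4. It also did not pass with no filter (adjusted p = 0.0541) or with the chip lot as a block (0.0513).

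A pair of textbook ATF4 targets gave estimates near 0. Asns, which encodes asparagine synthetase, had a log2 change of -0.08 ± 0.15 (2309 ± 416 and 2176 ± 281; 95% interval -0.40 to 0.25; limma adjusted p = 0.858). Ddit3, which encodes CHOP, had -0.10 ± 0.19 (-0.52 to 0.32; adjusted p = 0.852). Of 30 tested genes of the list with a promoter window, 11 held TGATGNAA (36.7%, against 3.98% of all windows), 2 of 5 among those that rose and 9 of 25 among the rest. The list was made of genes known to be raised through ATF4, which acts on such elements. A share above that of all windows can follow from that choice and is no separate result.

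The matches in genes that rose are shown beside that of Slc7a1, each as 30 bases read along the strand on which TGATGNAA reads forward, with the match in capitals (GRCr8; Slc7a1, chr12:11664447-11664476, plus strand; Trib3, chr3:161275536-161275565, plus strand, against the gene; Chac1, chr3:126795953-126795982, minus strand, against the gene).
Slc7a1: cggcgcgcggcTGATGAAAccggctcggat
Trib3: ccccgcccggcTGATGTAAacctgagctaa
Chac1: cctagcaggagTGATGCAAcggcggagaag

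The matches of Slc7a1 and Trib3 begin 30 and 21 bases before their starts, and that of Chac1 167 bases before.

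The rats did not rank alike in these genes. Rat 4 had the largest difference in both bright probe sets of Slc7a1 (1.46 and 1.99 on the log2 scale), in Slc38a2 (1.15), in Atf4 (1.06) and in Trib3, from 785 ± 60.2 to 1589 ± 479 on average, with 0.99, 0.87, 0.37 and 1.64 in rats 1 to 4. Rat 3 had the smallest in Trib3, in Slc38a2 (0.03) and in 1368391_at of Slc7a1 (0.10), but the largest in Chac1 (2.24). Over the 34 response genes the median difference was 0.52 in rat 4 and 0.10 to 0.19 in the others, and in rat 4 the hepatocyte markers, as given above, were lower. Whether that animal's state has a part in the Slc7a1 and Slc38a2 values was not tested.

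**Figure D3:**
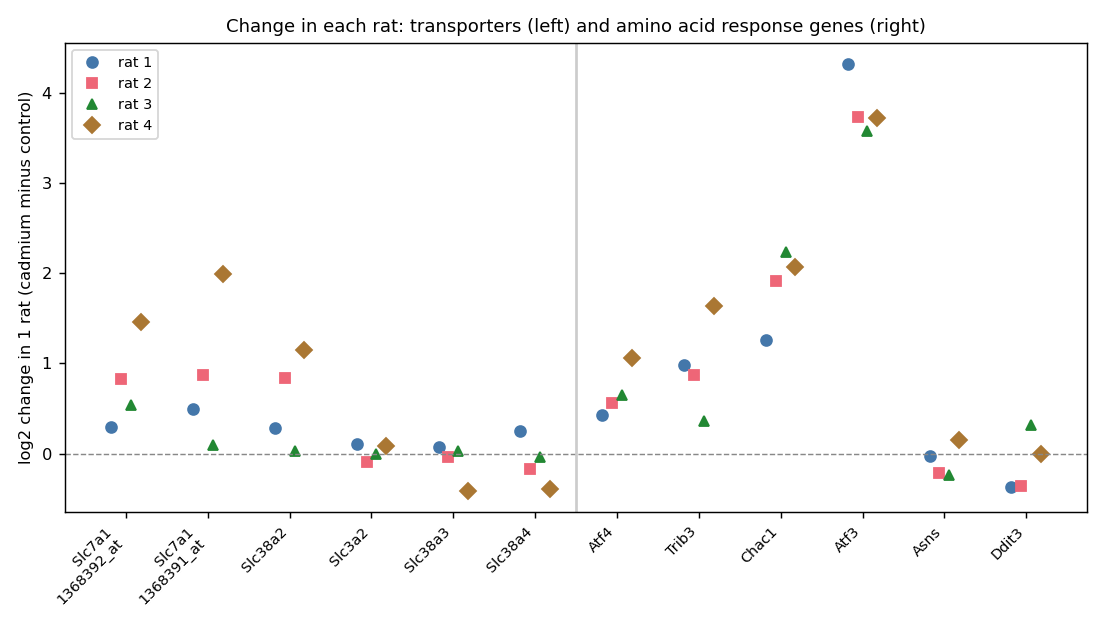
Log2 difference between the cadmium and control culture of each rat (y axis) for transporter probe sets (left of the grey line) and amino acid response genes (right); each symbol is 1 rat. Rat 4 is highest for Slc7a1, Slc38a2, Atf4 and Trib3, while Slc3a2 stays within 0.11 of 0 in every rat.

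Enzymes of amino acid metabolism, most of them of breakdown, did not pass, and rat 4 again differed. None of 24 tested genes passed the limma test with or without the block (3 higher and 1 lower at an unadjusted p under 0.05, where 5.94% of all genes were higher and 10.3% lower), and their median log2 change was 0.02, against -0.06 over all genes. The gene counted as lower, named after its values were seen, was Glul (-0.24 ± 0.10, limma adjusted p = 0.277). It encodes glutamine synthetase, which makes glutamine and is not an enzyme of breakdown. The brightest, Hpd, of tyrosine breakdown (0.11 ± 0.10), and Got2, the mitochondrial aspartate aminotransferase (-0.04 ± 0.09), had adjusted p of 0.696 and 0.88. In rats 1, 2 and 3, 15, 15 and 18 of the 24 were higher after cadmium, against 8 in rat 4, while 42.1% to 42.9% of all tested probe sets were higher in each rat. When rat 4 was left out and the replicate block kept, 4 of the 24 passed (3.09% of all genes were higher in that fit). All were higher and were named after their values were seen. They were Tat, tyrosine aminotransferase (log2 change 0.71), Cdo1, cysteine dioxygenase (0.53), Arg1, an arginase (0.42), and Mat1a, which makes S-adenosylmethionine (0.41). Their limma adjusted p ran from 0.0124 to 0.021.

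Of 20 tested genes of amino acid sensing by the kinase complex mTORC1, 1 rose and none fell (2.04% of all genes were higher and 1.31% lower), with a median log2 change of -0.15, against -0.06 over all genes. A count of 1 in 20 is near the share of all genes. At an unadjusted p under 0.05, 3 were higher and 4 lower, where 5.94% of all genes were higher and 10.3% lower. The 4 lower, named after their values were seen, were Tsc1 (-0.52, lower in 4 of 4 rats), Mtor (-0.38), Rptor (-0.27) and Lamtor5 (-0.24). Their limma adjusted p was 0.134 to 0.286. Estimates were positive for 7 of the 20, or 35%, against 38.4% of all genes. Fnip1, a partner of folliculin in the control of Rag GTPases, rose from 292 ± 70.9 to 608 ± 169 (1.04 ± 0.22; limma adjusted p = 0.0264) in 4 of 4 rats. With the replicate block, where 2.73% of all genes were higher, 3 rose, the others being Flcn, the gene of folliculin itself (0.55; adjusted p = 0.0445), and Rheb, the GTPase that activates the kinase (0.33; adjusted p = 0.0363), named after their values were seen. The call of Fnip1 ended without control replicate 2, 3 or 4 or cadmium replicate 1 or 2 (adjusted p up to 0.083), and without rat 2 or rat 4 (0.177 and 0.103).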

How the data were processed

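RNA of 8 hepatocyte cultures was read on 8 arrays. The deposited table holds 1 intensity (signal) per probe set and array, made by the authors with MAS5 per the submitters' processing notes, with no version; the sources used here name no scaling target. Signals average about 497 on each array without the lowest and highest 2%. MAS5 summarizes each array alone. Dim values were noisy, as in Slc1a5, with log2 differences from 1.37 to -2.02 among the rats.

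The 57 control probe sets were left out. Symbols of the platform annotation were updated by gene number to RefSeq (GRCr8). Of 15866 probe sets, 12783 had 1 symbol, 312 several and 2771 none here. A list gene was read on its probe set with the highest mean. Fits used lmFit and eBayes with a variance trend (limma 3.58.1, R 4.3.3) on log2(signal + 1). The added 1 shrinks changes only slightly, and more so the dimmer the signal. Array run files gave the batches only.

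Both samples of a number come from 1 rat per the labels, so the numbers pair the samples. Deviations from group means correlated within rats 1 to 4 at 0.35, 0.251, 0.475 and 0.196, and across rats at most at -0.00828. Deviations within a group sum to 0, so positive values within rats push those across rats below 0. Rat and scan day cannot be told apart in these values. The paired comparison is the fit with the replicate block, set beside a main fit chosen without it. Arrays have no depth, and their number limits the precision. No arrays were duplicates (correlation at most 0.953).

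The members and lists were chosen with earlier results of these data known. Named were all members; up to 3 genes per list past the threshold with the same sign in 4 rats, or the 2 brightest; Atf4, Asns, Ddit3 and Slc7a11; and the 3 genes most like a member that passed. No member passed without the block, so that rule was applied to the paired fit after the values were seen. The fits were tested on simulated data.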

Additional observations from a re-analysis of the deposited data

Results flagged for a closer look

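Among 42 groups of 4 arrays examined (21 probe sets of the genes named by rule, each in control and cadmium cultures), 1 held a sample far from the other 3, and chance gives such a gap in about 5% of groups. For Got2, the control culture of rat 2 had a signal of 6042.5, above the other controls at 5472.8 to 5537.6. No transporter probe set was marked in this way.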

How the results depend on the processing

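No log2 change of the 2 bright Slc7a1 probe sets or of Slc38a2 turned sign under the 20 planned and 7 added settings. Ranges over the planned settings were 0.55 to 0.94 (1368392_at), 0.49 to 1.12 (1368391_at) and 0.38 to 0.83 (Slc38a2). Dim members were fitted only without the filter. Signals near the filter limit Slc7a2, Slc7a5 and Slc1a5.

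Transporter probe sets higher numbered 1 with the replicate block, 0 to 2 with an array or rat left out, and 1, 0, 0 and 1 with the block and without rats 1 to 4. With an array or rat left out, 79 to 186 of all probe sets were higher and 26 to 126 lower. With the block and without rats 1 to 4, 188, 122, 161 and 301 were higher and 68, 45, 48 and 285 lower. Lower calls numbered 218 with the block, 89 after quantile normalization and 74 after median centring. Within lots 1 and 2, settings chosen after seeing the data as were the blocked omissions, 40 and 73 were higher and 7 and 17 lower. Response genes higher numbered 3 to 5 on omissions and 3 within lot 1. Genes of amino acid metabolism higher numbered 4 with the block and without rat 4. Sensing genes higher numbered 3 with the block, 0 to 1 on omissions, 0 within each lot, and 2, 0, 1 and 2 with the block and without rats 1 to 4. The difference of array medians was -11.5 to -9.57 without 1 rat (exact permutation p = 0.1, the smallest possible, again with the pairing by rat ignored).

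Estimates near 0 changed sign, and none of them passed. On omissions Slc3a2 ran from -0.0444 to 0.0786, Slc38a3 from -0.194 to 0.0214, Slc38a4 from -0.203 to 0.0270, Got2 from -0.0878 to 0.0190, Asns from -0.197 to 0.0139 and Ddit3 from -0.266 to 0.00244. With the block, Slc3a2 was -0.0028 without rat 1, and without rat 4 Slc38a3 was 0.0214, Slc38a4 0.0133 and Got2 0.0050. Slc3a2 was -0.0996 and Hpd -0.0013 after quantile normalization, and Got2 was 0.0377 and Asns 0.0023 after centring. Within lot 2 Slc38a3 was 0.0159 and Slc38a4 0.0404, and within lot 1 Ddit3 was 0.155. The cause was not tested. Beside the calls of Slc7a1 (1368392_at) and Gtf2ird1, the block changed no other call of a gene named by rule.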
